A study of Sus scrofa with 12 samples.

Results

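DDIT4 and 9 further genes that set the activity of the growth kinase complex mTORC1 were followed in sow endometrium. They were taken by gene name, from a list drawn up with earlier results of these data known: DDIT4, the sestrins SESN1, SESN2 and SESN3, TSC1, TSC2, RHEB, MTOR, RPTOR and EIF4EBP1. These are 10 of the 20674 genes in the deposited table, and all 10 passed the filter on low counts that left 15351 genes for testing. RNA of the endometrium was sequenced from Landrace × Yorkshire sows of one parity, which received their diets from breeding through the 114 days of gestation. The L − N group, the basal control, received a diet with 3.73% crude fiber. The L + N group received the same diet with 0.05% N-carbamylglutamate (NCG), an analog of N-acetylglutamate that promotes arginine synthesis in the body. The H − N group received 7.46% crude fiber, in which soybean bran and beet pulp took the place of part of the corn, and the H + N group received 7.46% crude fiber with 0.05% NCG. Each group had 3 libraries, labelled as separate samples but not tied to named animals, so that the p-values measure the spread between these samples.

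mTORC1 is a protein kinase complex built on MTOR and its scaffold RPTOR. It promotes protein synthesis and cell growth when amino acids, energy and growth factors are present, and arginine is among the amino acids it responds to. The small GTPase RHEB switches it on at the lysosome, and the TSC1–TSC2 complex switches RHEB off. DDIT4 (also called REDD1) is a stress protein that inhibits mTORC1 through TSC1–TSC2 and is induced by hypoxia, glucocorticoids, DNA damage and energy stress. Sestrins inhibit mTORC1 when amino acids are short, and SESN2 is a leucine sensor. EIF4EBP1 blocks the translation factor EIF4E until mTORC1 phosphorylates it. The data are RNA levels, and neither phosphorylation nor mTORC1 activity was measured.

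The total count ranged from 14369781 to 19309724 per library. On the first principal component of log2 CPM, which carried 26.7% of the variance, L − N replicates 2 and 3 had scores of −67.2 and −65.5 and the libraries of the other groups lay between 1.06 and 28.2. L − N replicate 1 stood apart from its own group at −22.6, so the calls of members that change without it are given both ways. It was not alone. On the second component (15.8% of the variance), H − N replicate 3 scored 49.9, beside 23.3 and 3.15 for replicates 1 and 2. Against the other replicates of its group, the chi-square per gene was 99.8 and 75.0 for L − N replicate 1. It was 80.9 and 68.3 for H − N replicate 3, and 49.4 and 81.9 for H + N replicate 3. Epithelial and stromal markers were present in every library. Among the trophoblast markers, CYP19A1 had no count in any library and HAND1 had at most 4. PEG10, GATA3 and TFAP2C reached 537, 111 and 164 counts, and PAG2 was not among the gene names. In bulk tissue, fewer cells of a type and less RNA per cell cannot be told apart. Between groups, the summed CPM (counts scaled to library size, with TMM factors) of the 7 macrophage markers was 1314 in L − N replicate 1 and 3340 and 3459 in replicates 2 and 3, beside 1119 to 1572 in L + N, 672 to 977 in H − N and 1077 to 1344 in H + N. The sum of 6 markers of dividing cells was 53.7 to 157 in L − N, 292 to 397 in L + N, 165 to 213 in H − N and 267 to 362 in H + N. Against L − N, 1 of the 7 macrophage markers fell in L + N, as did 6 in H − N and 3 in H + N, and 5, 1 and 4 of the 6 markers of dividing cells rose. Without L − N replicate 1 these were 6, 7 and 6 macrophage markers and 4, 1 and 2 markers of dividing cells. The sum of 7 smooth muscle markers was 5857 CPM in L − N replicate 1, 1805 and 2265 CPM in replicates 2 and 3, and 987 to 1857 CPM in the libraries of the other groups. Of these markers 2 fell in L + N against L − N, or 1 without L − N replicate 1. The sum of 6 endothelial markers was 1122 to 1641 CPM in L − N and 826 to 988 CPM in L + N, without overlap, and 1100 to 1179 CPM in H − N and 1011 to 1234 CPM in H + N. Of these 6, 2 fell in L + N and 1 in H + N against L − N, or 1 and 0 without L − N replicate 1. The sum of 5 trophoblast markers was 15.8 to 22.3 CPM in L − N and 28.7 to 34.1 CPM in H − N, without overlap. It was 18.5 to 33.7 CPM in L + N and 17.3 to 46.8 CPM in H + N. Of the 3 trophoblast markers tested, none passed. The sum of 7 epithelial markers was 1215 to 1339 CPM in H + N and 1386 to 1836 CPM in L − N. It was 1495 to 1560 CPM in L + N and 1535 to 2265 CPM in H − N. H + N thus lay below every library of the other groups. The sum of 7 stromal markers was 28370 to 32769.8 CPM in L − N and 26187 to 47436 CPM in L + N. It was 34518.2 to 61534.1 CPM in H − N and 33942.5 to 59681.4 CPM in H + N, both above L − N. This sum leans on the collagens, as COL3A1 reached 30236 CPM, COL1A1 15816 CPM and COL1A2 11665 CPM, against 1183 CPM for PDGFRA. The median log2 fold change of the 7 stromal markers against L − N was 0.015 in H − N, where 1 fell and none rose, and 0.29 in H + N. In H + N against L − N, 1 epithelial and 1 stromal marker fell and none rose. The sum of 4 erythroid markers was 753, 62.6 and 514 CPM in L − N replicates 1 to 3. It was 26.6 to 81.8 CPM in L + N, 31.8 to 55.4 CPM in H − N and 28.1 to 293 CPM in H + N. Of the 3 erythroid markers tested, 1 fell in L + N against L − N. The part of these shifts in the results that follow was not tested.

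Per length, RHEB was the most abundant of the 10 genes and SESN2 the least. On the deposited FPKM scale (counts scaled by gene length and library total), the mean over the 12 libraries was 155 for RHEB, 43.6 for DDIT4 and 32.6 for EIF4EBP1. SESN3 had 17.3 FPKM, SESN1 15.2, TSC2 11.8, MTOR 10.4, TSC1 9.84 and SESN2 1.35, with RPTOR between the last 2. DDIT4 lay at the 91.0 percentile of the tested genes and SESN2 at the 19.2 percentile. The length used for RHEB in the deposited table was 555 bases against 1791 bases for DDIT4, and the FPKM of these short genes depends on that length. On the CPM scale, the highest library exceeded the lowest by 1.35-fold for MTOR and 1.38-fold for TSC2. The excess was 2.73-fold for SESN1, 2.72-fold for EIF4EBP1, 2.29-fold for SESN3 and 2.24-fold for DDIT4. MTOR and TSC2 thus had the smallest spread of the 10 between libraries in CPM.

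DDIT4 was highest in the basal control and lowest in H + N. The gene lies on chromosome 14 at 75117708 to 75119907 of Sscrofa11.1, on the plus strand, and overlaps no other annotated gene. In L − N its level was 127, 116 and 105 CPM in replicates 1, 2 and 3. In L + N it was 63.8, 74.1 and 63.5 CPM, and in H − N 69.4, 69.6 and 79.6 CPM. Every L − N library thus lay above every library of the other groups, including L − N replicate 1, which had the highest value of all. In H + N the 3 libraries had 56.8, 60.1 and 57.6 CPM. They lay below every library of the other 3 groups, while the ranges of L + N and H − N overlapped. The group means were 116 ± 11.3, 67.1 ± 6.02, 72.9 ± 5.83 and 58.2 ± 1.72 CPM (SD, n = 3), in the same order of groups, and on the FPKM scale 62.2, 39.2, 40.4 and 32.5.

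**Figure D1:**
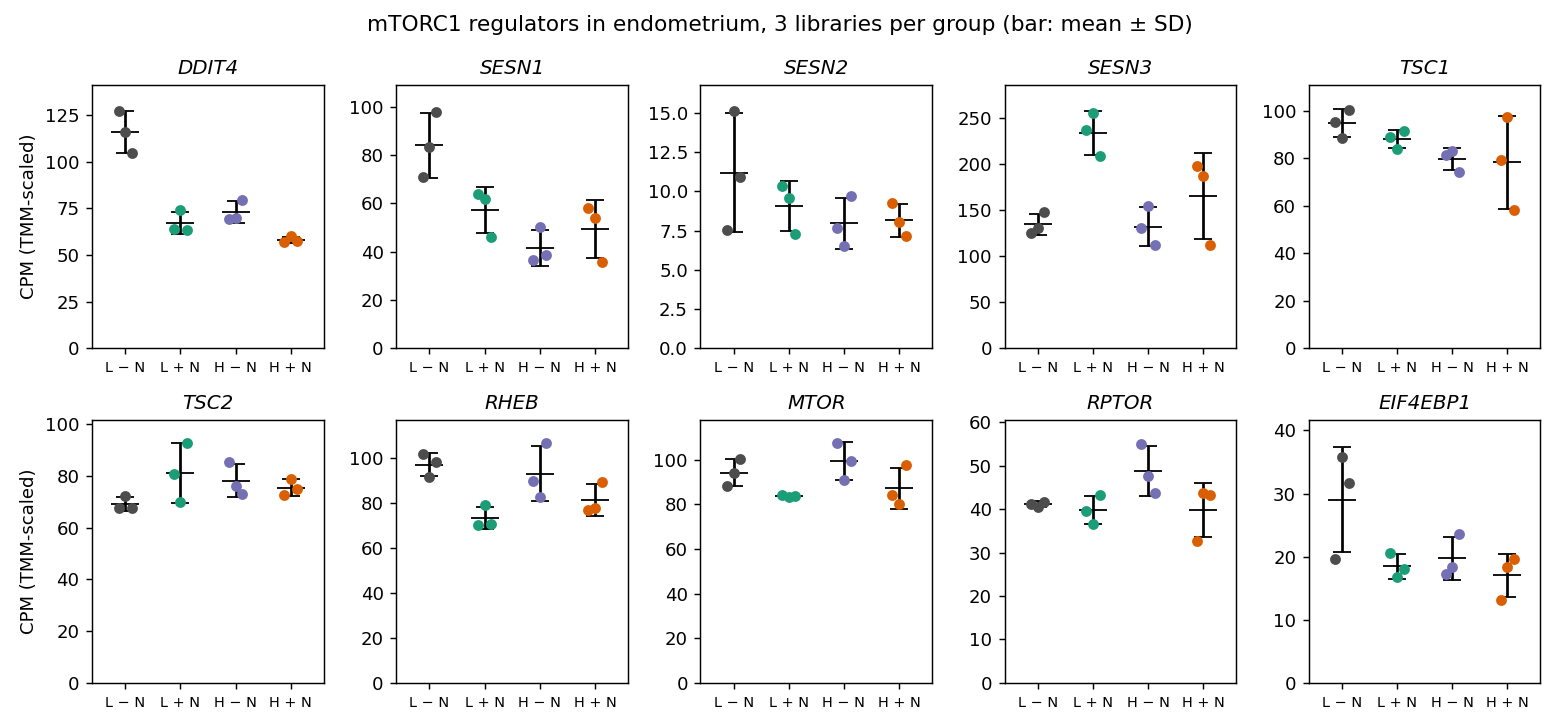
Level of each gene (CPM, scaled by TMM, linear axis from 0) in the 3 libraries of each group, with the group mean and SD as bars. DDIT4 lay at 105 to 127 CPM in L − N and at 56.8 to 60.1 CPM in H + N, and SESN3 was highest in L + N at 208 to 255 CPM.

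Each of the other 3 groups was first compared with the basal control, to ask whether fiber, NCG or both together changed the members. The 3 comparisons share the L − N libraries and are not independent of each other. DDIT4 fell by 0.99 on the log2 scale in H + N (SE 0.11, 95% interval −1.24 to −0.75), or 1.99-fold, with an edgeR quasi-likelihood adjusted p of 0.0136 (Benjamini-Hochberg over 15351 genes). By its p-value it ranked 2 among all genes of that comparison. With NCG alone, in L + N, it fell by 0.79 (SE 0.11, edgeR adjusted p = 0.00818), and with fiber alone, in H − N, by 0.67 (SE 0.11, edgeR adjusted p = 0.0192). In size the H + N difference lay at the study's additional threshold of 1 on the log2 scale, and its side depended on the scaling and the fit. It was just under 1 here, whereas it was −1.01 with RLE size factors (edgeR adjusted p = 0.0139), −1.01 with DESeq2 (adjusted p = 2.3e-13) and −1.02 in the fit of the 2 groups alone (edgeR adjusted p = 0.0487), past both thresholds.

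The L + N decrease of DDIT4 passed whichever library was left out, with log2 fold changes between −0.87 and −0.72. The H + N decrease kept a size between −1.06 and −0.92, and its edgeR adjusted p was 0.0524 without H + N replicate 1 and under the threshold in the other 11 fits. The H − N decrease lost its call without L − N replicate 3 (edgeR adjusted p = 0.0685) and without H − N replicate 1 (0.0673). With L − N replicate 1 left out, the H + N difference was −0.92 with an edgeR adjusted p of 0.00212.

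Over both fiber levels, DDIT4 fell with NCG by 0.56 on the log2 scale (SE 0.08, edgeR adjusted p = 0.00578), and this passed in all 12 fits that left out one library. Over both NCG levels, its difference between high and low fiber was −0.44 (SE 0.08, 95% interval −0.61 to −0.27), with an unadjusted p of 0.000142 and an edgeR adjusted p of 0.0576. This fiber difference passed when L − N replicate 1 was left out (edgeR adjusted p = 0.0151), likewise H + N replicate 2 (0.0468), and with DESeq2 (adjusted p = 4.21e-05). The interaction, the NCG effect at high fiber minus that at low fiber, was 0.46 on the log2 scale (SE 0.16, 95% interval 0.12 to 0.80), with an unadjusted edgeR p of 0.0124 and an adjusted p of 0.294.

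The step from H − N to H + N and from L + N to H + N was compared as well, after the group levels had been seen. DDIT4 in H + N differed by −0.33 from H − N (SE 0.11, unadjusted p = 0.0130, edgeR adjusted p = 0.477) and by −0.21 from L + N (SE 0.11, edgeR adjusted p = 0.910). Neither passed, although the libraries did not overlap in either. In these comparisons the libraries of 13% and 11% of all genes did not overlap, as was the case for 1 and 2 of the 10 members.

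Taking all 10 members, 2 passed in H + N against L − N, where 7.97% of all genes did. DDIT4 and SESN1 were lower there and none was higher. In H − N against L − N, 2 members passed, again DDIT4 and SESN1 and both lower, beside 5.27% of all genes. In L + N against L − N, 2 members passed, DDIT4 lower and SESN3 higher, beside 9.6% of all genes. For NCG over both fiber levels, 2 members passed, DDIT4 lower and SESN3 higher, beside 7.27% of all genes. For fiber over both NCG levels no member passed in edgeR, where 0.0521% of all genes did, while 2 members had an unadjusted p under 0.05 and 2 passed in DESeq2. Of all 15351 genes, 2994 had an unadjusted p under 0.05 for fiber and 290 were differentially expressed in DESeq2. Differentially expressed genes also needed an absolute log2 fold change above 1, unlike the members counted as passing. For the interaction 0 members and 0% of all genes passed in edgeR, beside 2 members with an unadjusted p under 0.05 and 0 members in DESeq2. Over all genes, 1967 had an unadjusted p under 0.05 for the interaction and 184 were differentially expressed in DESeq2. Likewise 0 members and 0% of all genes passed for H + N against H − N or against L + N in edgeR, with 1 member each at an unadjusted p under 0.05 and 0 members in DESeq2. Over all genes, 1331 had an unadjusted p under 0.05 against H − N and 719 against L + N, with 25 and 2 differentially expressed in DESeq2.

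Libraries of 5 members did not overlap between H + N and L − N, 5 between H − N and L − N and 5 between L + N and L − N. Over all genes the libraries did not overlap for 28%, 25.4% and 35.3%. At these backgrounds, a gap between groups of 3 libraries was frequent among genes in general. The counts of members that passed also moved when libraries were left out. In H + N against L − N the count was 0 when H + N replicate 1 was left out. In H − N it was 0 when either L − N replicate 3 or H − N replicate 1 was left out. When L − N replicate 1 was left out, it was 3 in both and 2 for fiber. Calls over all genes moved as well. Without L − N replicate 1, 948 genes were differentially expressed for H + N, 1120 for H − N and 331 for fiber. With all libraries these were 549, 446 and 4.

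**Figure D2:**
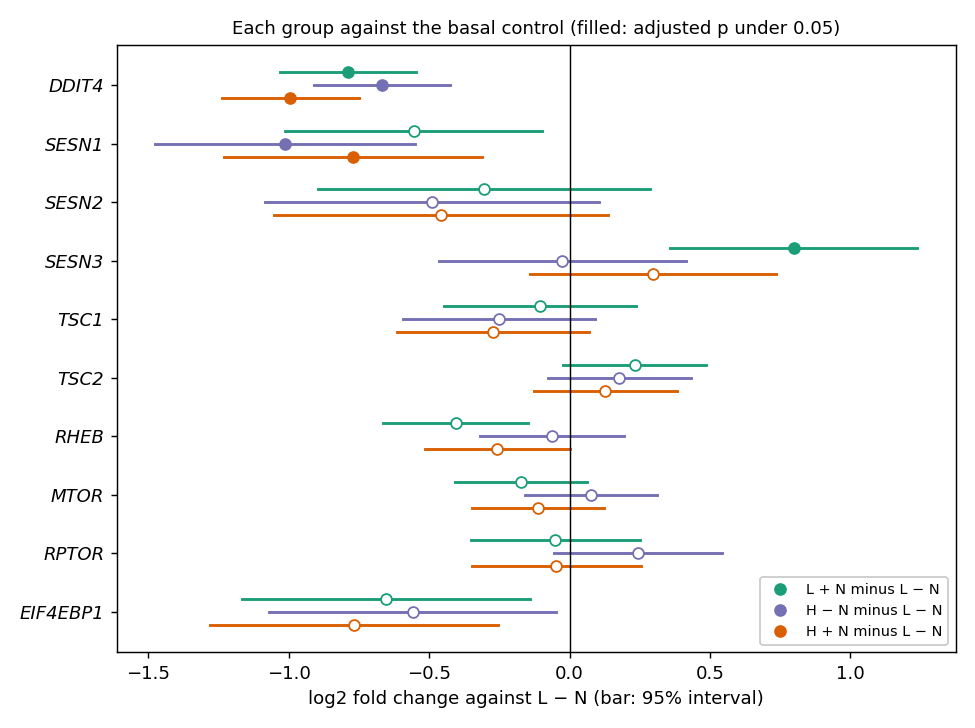
Log2 fold change of each gene in L + N, H − N and H + N against L − N, with the 95% interval of the edgeR fit, and filled points where the adjusted p was under 0.05. DDIT4 lay at −0.79, −0.67 and −0.99, SESN1 passed in H − N and H + N only, and SESN3 lay on the other side of 0 in L + N at 0.80.

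Among the sestrins, SESN1 and SESN3 took different courses. SESN1 (chromosome 1, 75056731 to 75170374, minus strand), a target of p53 and FOXO factors, had 70.9, 83.5 and 97.8 CPM in L − N replicates 1 to 3. In L + N it had 63.8, 61.7 and 46.1 CPM, in H − N 36.4, 50.1 and 38.4 CPM, and in H + N 58.1, 53.9 and 35.8 CPM. All L − N libraries again lay above all others, but here the lowest mean was that of H − N (41.6 ± 7.43 CPM, SD, n = 3), and the other 3 groups overlapped. SESN1 fell in H − N by 1.01 on the log2 scale (SE 0.21, edgeR adjusted p = 0.0279), past both thresholds, as were 2.91% of all genes in H − N, and in H + N by 0.77 (SE 0.21, edgeR adjusted p = 0.0471). In L + N the difference was −0.56 (SE 0.21, edgeR adjusted p = 0.113).

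These SESN1 calls were close to the threshold. The H − N call was lost without L − N replicate 2 (edgeR adjusted p = 0.0689), L − N replicate 3 (0.116), H − N replicate 1 (0.0837), and likewise without H − N replicate 3 (0.0775). The H + N call held in 2 of 12 fits that left out one library, without L − N replicate 1 or H − N replicate 3, and the edgeR adjusted p ranged from 0.0330 to 0.159 over the 12. For fiber over both NCG levels the difference in SESN1 was −0.61 (SE 0.15, edgeR adjusted p = 0.0880), and DESeq2 gave an adjusted p of 0.00598. It was 0.0266 in edgeR without L − N replicate 1. For the interaction it was 0.80 (SE 0.30, unadjusted p = 0.0201, edgeR adjusted p = 0.320). SESN1 overlaps ARMC2 on the other strand over 25012 bases and LOC102163847 over 458 bases, and because the strand setting of the counting is not stated, reads of these genes cannot be told apart.

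SESN3 (chromosome 9, 27207239 to 27279205, minus strand), a FOXO target, was highest with NCG at low fiber. Its level was 237, 255 and 208 CPM in L + N and 125, 131 and 147 CPM in L − N. In H − N it was 130, 154 and 112 CPM, a range that includes all 3 of the L − N values. H + N was divided, with 197 and 186 CPM in replicates 1 and 2 and 111 CPM in replicate 3, the lowest SESN3 value of the 12 libraries. Its mean of 165 ± 46.8 CPM (SD, n = 3) was between those of L + N (233 ± 23.6 CPM) and L − N (134 ± 11.7 CPM).

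SESN3 rose by 0.80 on the log2 scale in L + N against L − N (SE 0.20, edgeR adjusted p = 0.0320) and by 0.56 with NCG over both fiber levels (SE 0.14, edgeR adjusted p = 0.0369). In H + N against L − N its difference was 0.30 (SE 0.20, 95% interval −0.14 to 0.74, edgeR adjusted p = 0.359), and in H − N −0.03 (SE 0.20). The L + N increase was lost when any one library of L + N or L − N was left out, with edgeR adjusted p between 0.0583 and 0.123. The NCG increase kept its call only without H − N replicate 2 or H + N replicate 3, and the highest edgeR adjusted p was 0.103, without L + N replicate 2. At high fiber H + N differed from H − N by 0.32 (SE 0.20, edgeR adjusted p = 0.663), and against L + N by −0.50 (SE 0.20, unadjusted p = 0.0287, edgeR adjusted p = 0.910). The interaction for SESN3 was −0.48 (SE 0.28, edgeR adjusted p = 0.502).

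SESN2, the leucine-binding sestrin and a target of ATF4, was scarce, with 94 to 241 counts per library. It had 7.51, 15.1 and 10.9 CPM in L − N and 10.3, 9.55 and 7.26 CPM in L + N. In H − N it had 7.67, 6.52 and 9.72 CPM and in H + N 9.23, 8.04 and 7.17 CPM. The L − N range overlapped that of every other group. The difference of H + N from L − N was −0.46 with a 95% interval from −1.05 to 0.14, within which the −0.99 of DDIT4 lies.

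RNA of the TSC complex did not pass in any comparison. TSC1, the stabilizing subunit, had 95.3, 88.7 and 100 CPM in L − N and 89.0, 83.8 and 91.4 CPM in L + N. It had 81.5, 83.2 and 74.3 CPM in H − N, below all L − N values, and 79.2, 97.5 and 58.4 CPM in H + N. The H + N libraries were spread around the others, and their difference from L − N was −0.27 (SE 0.16, 95% interval −0.62 to 0.07, edgeR adjusted p = 0.280). TSC2, the GTPase-activating subunit, was the one member lowest in the basal control, with 67.5, 72.0 and 67.8 CPM. The other libraries had 80.6, 70.0 and 92.9 CPM in L + N, 85.4, 75.9 and 73.0 CPM in H − N and 72.4, 78.9 and 75.1 CPM in H + N. TSC2 differed from L − N by 0.23 in L + N, by 0.18 in H − N and by 0.13 in H + N, with an SE of 0.12 each and edgeR adjusted p of 0.219, 0.371 and 0.513. It overlaps PKD1 on the other strand over 532 bases.

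For RHEB, the direct activator of mTORC1, the difference with NCG was just short of the threshold. RHEB had 102, 91.7 and 98.1 CPM in L − N and 70.0, 79.0 and 70.8 CPM in L + N, without overlap. In H − N it had 89.6, 82.9 and 106 CPM, and in H + N 76.8, 77.7 and 89.4 CPM, where the ranges overlapped. For NCG over both fiber levels the difference was −0.30 (SE 0.08, 95% interval −0.48 to −0.12, edgeR adjusted p = 0.0514), and in L + N against L − N it was −0.41 (SE 0.12, edgeR adjusted p = 0.0515). DESeq2 gave adjusted p of 0.0104 and 0.0115, and with RLE size factors the L + N difference had an edgeR adjusted p of 0.0493. Without H + N replicate 3 both differences passed (edgeR adjusted p = 0.0374 for NCG and 0.0423 for L + N).

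MTOR and RPTOR did not pass in any comparison. Between the highest and the lowest library MTOR varied 1.35-fold and RPTOR 1.68-fold. MTOR had 88.4, 94.0 and 101 CPM in L − N, and its 3 libraries in L + N lay closer together than those of any other member and group, at 84.2, 83.3 and 83.6 CPM. In H − N it had 108, 91.0 and 99.5 CPM and in H + N 84.0, 80.1 and 97.5 CPM. Its 95% intervals against L − N were −0.41 to 0.06 on the log2 scale in L + N, −0.16 to 0.31 in H − N and −0.35 to 0.12 in H + N, so that a 2-fold change lay outside all of them. For NCG over both fiber levels its difference was −0.18 (SE 0.08, unadjusted p = 0.0354, edgeR adjusted p = 0.176). MTOR overlaps ANGPTL7 on the other strand over 5428 bases.

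RPTOR had 41.3, 40.5 and 41.7 CPM in L − N, 39.6, 36.6 and 43.2 CPM in L + N, 55.0, 47.6 and 43.7 CPM in H − N and 32.6, 43.7 and 43.2 CPM in H + N. H − N lay above L − N in all libraries, by 0.24 on the log2 scale (SE 0.14, edgeR adjusted p = 0.296). In H + N the difference from L − N was −0.05 (95% interval −0.35 to 0.25).

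EIF4EBP1, the translation repressor that mTORC1 inactivates, had its highest mean in the basal control, and no comparison passed the test. In L − N it had 19.7 CPM in replicate 1, against 35.8 and 31.6 CPM in replicates 2 and 3. It had 20.6, 16.8 and 18.0 CPM in L + N, 17.3, 18.4 and 23.5 CPM in H − N and 13.2, 18.3 and 19.6 CPM in H + N. L − N replicate 1 thus lay within the ranges of L + N and H − N, and just above that of H + N. Set against L − N, EIF4EBP1 differed by −0.65 in L + N, by −0.56 in H − N and by −0.77 in H + N (SE 0.23 each), with edgeR adjusted p of 0.0996, 0.168 and 0.0644. Without L − N replicate 1 they became −0.87, −0.77 and −0.98 and all passed (edgeR adjusted p = 0.0227, 0.0315 and 0.0152), as did NCG over both fiber levels at −0.54 (0.0413). DESeq2 on all libraries called it in H + N (adjusted p = 0.0163) and L + N (0.0449).

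Pairs of members were described by Pearson's r of log2 CPM over the 12 libraries, which share the group structure and the scaling. SESN1 and SESN3 had r = 0.25 over all libraries and r = 0.90 once each group's mean was subtracted. That value was the highest within groups of all pairs of members, and it was picked as such from the same 12 libraries. Within groups, the libraries high in one sestrin were thus high in the other, while the groups were ordered differently. TSC1 shared part of this, with r within groups of 0.76 with SESN3 and 0.56 with SESN1. SESN1, SESN3 and TSC1 each had their lowest level of the 12 libraries in H + N replicate 3. RHEB and SESN3 had r = −0.85 (−0.63 within groups), and MTOR and SESN3 r = −0.77 (−0.59 within groups). DDIT4 had r = 0.69 with EIF4EBP1, 0.67 with RHEB and 0.65 with SESN1, and within groups −0.20, 0.60 and −0.20.

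**Figure D3:**
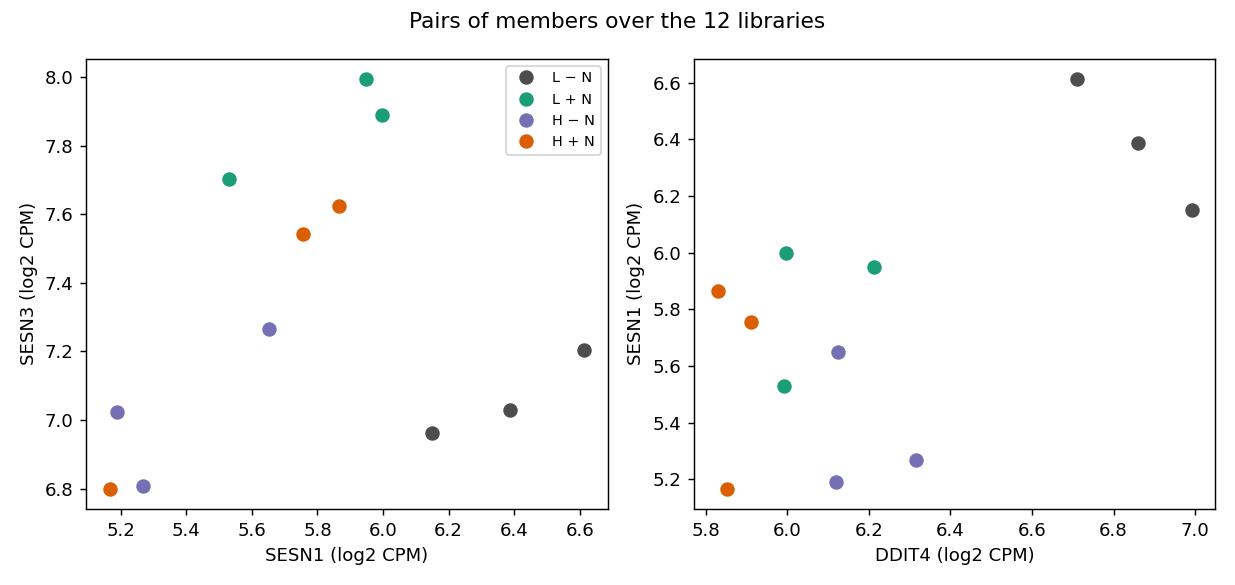
SESN3 against SESN1 and SESN1 against DDIT4 (log2 CPM, 1 point per library, colored by group). SESN1 and SESN3 followed each other within groups (r = 0.90 with group means subtracted) with L − N displaced to the right, and the 3 L − N libraries stood apart at high DDIT4 and SESN1.

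Among 13589 genes with a mean of at least 1 CPM, the genes most like DDIT4 over the 12 libraries were EDN1 (endothelin, r = 0.94, Spearman's rho = 0.90), C2H11orf96 (r = 0.93), WDR1, an actin-disassembly factor (r = 0.92), EFL1 (r = 0.92) and CTNNB1, the gene for beta-catenin (r = 0.92). The most opposed were NRF1, a regulator of mitochondrial genes (r = −0.94, rho = −0.92), PALM3 (r = −0.93) and SKIDA1 (r = −0.93). With group means subtracted, r was 0.38 for EDN1, 0.20 for CTNNB1 and −0.72 for NRF1. These genes were picked as extremes from the same 12 libraries and their r is a description.

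For the gene lists around these members, 4.31% of all genes rose and 3.66% fell in H + N against L − N, and 1.6% fell with NCG over both fiber levels. Of 10 other tested subunits and regulators of the mTOR complexes, 1 passed in H + N against L − N, PRR5, a subunit of mTORC2, which fell by 1.24 on the log2 scale (SE 0.30, edgeR adjusted p = 0.0327). RICTOR, which defines mTORC2 as RPTOR defines mTORC1, rose with NCG over both fiber levels by 0.84 (SE 0.18, edgeR adjusted p = 0.0201), with 27.4 to 36.7 CPM in L − N, 62.9 to 74.8 CPM in L + N, 21.97 to 50.9 CPM in H − N and 46.3 to 65.0 CPM in H + N. The libraries overlapped at high fiber, where the difference of RICTOR was 0.57 (SE 0.26, edgeR adjusted p = 0.571), against 1.10 at low fiber (SE 0.26, edgeR adjusted p = 0.0248), and its interaction did not pass (−0.53, SE 0.36, edgeR adjusted p = 0.559). The RICTOR call was lost without L − N replicate 3 (edgeR adjusted p = 0.0531), L + N replicate 2 (0.0532) or H + N replicate 1 (0.0519). TBC1D7, the partner of TSC1 and TSC2, and the relatives RHEBL1 and DDIT4L did not pass in H + N against L − N.

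Of 28 tested genes of amino acid sensing by the Rag GTPases, 2 fell in H + N against L − N and none rose. CASTOR2, a relative of the arginine sensor CASTOR1, had 29.8 to 36.5 CPM in L − N and 10.2 to 18.0 CPM in H + N, a fall of 1.35 on the log2 scale (SE 0.21, edgeR adjusted p = 0.0142). It also fell in L + N by 0.80 (edgeR adjusted p = 0.0352), in H − N by 0.92 (0.0331) and with NCG over both fiber levels by 0.61 (0.0302). RRAGC, one of the Rag GTPases, fell by 0.57 in H + N (SE 0.15, edgeR adjusted p = 0.0448). The median of the 28 was −0.10 beside 0.02 over all genes.

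Upstream, 22 genes of PI3K-AKT and AMPK signaling were tested, of which 2 rose and 2 fell in H + N against L − N. PIK3R1, a regulatory subunit of PI3K, rose by 0.89 (SE 0.19, edgeR adjusted p = 0.0262). IGF1R, the receptor of insulin-like growth factors, fell by 0.74 (SE 0.18, edgeR adjusted p = 0.0333). PRKAB1, a beta subunit of AMPK, fell with NCG over both fiber levels by 0.35 (SE 0.08, edgeR adjusted p = 0.0250).

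Of 19 tested genes downstream of mTORC1, 3 fell in H + N against L − N and none rose. The median of the 19 was −0.03 beside 0.02 over all genes, and 9 of them had a log2 fold change above 0. ULK1, the kinase that starts autophagy and is held back by mTORC1, fell by 0.76 (SE 0.17, edgeR adjusted p = 0.0266). GRB10, an adaptor that dampens insulin signaling, fell by 0.69 (SE 0.18, edgeR adjusted p = 0.0449), and MAF1, a repressor of RNA polymerase III, by 0.51 (SE 0.14, edgeR adjusted p = 0.0479). In the deposited KEGG annotation, 134 other genes of mTOR signaling were tested, of which 3 rose and 12 fell in H + N against L − N, with a median of −0.12. All members but SESN1 and SESN3 carry that annotation.

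Genes known to respond to the same stimuli as DDIT4 were taken by stimulus. Of 13 tested glucocorticoid-responsive genes, 5 fell in H + N against L − N and none rose, with a median of −0.79. TSC22D3 (GILZ), an anti-inflammatory mediator, had 122 to 137 CPM in L − N and 40.2 to 68.6 CPM in H + N, and fell by 1.13 (SE 0.17, edgeR adjusted p = 0.0136). FKBP5, a chaperone of the glucocorticoid receptor, had 135 to 178 CPM in L − N and 77.5 to 91.0 CPM in H + N, and fell by 0.90 (SE 0.15, edgeR adjusted p = 0.0155). Both genes, like DDIT4, fell also in L + N, by 0.78 for TSC22D3 (edgeR adjusted p = 0.0199) and 0.82 for FKBP5 (0.0108), and in H − N, by 0.77 for TSC22D3 (0.0331) and 0.70 for FKBP5 (0.0279).

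KLF9, a transcription factor induced by glucocorticoids and progesterone, fell by 1.22 in H + N against L − N (SE 0.23, edgeR adjusted p = 0.0182) and GLUL, glutamine synthetase, by 0.83 (SE 0.20, edgeR adjusted p = 0.0343). NR3C1, the glucocorticoid receptor itself, differed by 0.04 (SE 0.17, edgeR adjusted p = 0.916). With NCG over both fiber levels 4 of the 13 fell, among them FKBP5 by 0.51 (edgeR adjusted p = 0.0160) and TSC22D3 by 0.57 (0.0183), with a median of −0.50 beside −0.03 over all genes.

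Of 17 hypoxia-responsive genes, 1 rose and 4 fell in H + N against L − N, with a median of −0.31. VEGFA, the angiogenic growth factor, rose by 1.59 (SE 0.31, edgeR adjusted p = 0.0214), whereas ADM, the vasodilator adrenomedullin, fell by 1.75 (SE 0.41, edgeR adjusted p = 0.0308). PDK1, a kinase that holds back pyruvate oxidation, fell by 0.81 (SE 0.13, edgeR adjusted p = 0.0151) and BNIP3L, a mitophagy receptor, by 0.55 (SE 0.15, edgeR adjusted p = 0.0469). The BNIP3L call was lost whichever library was left out (edgeR adjusted p from 0.0509 to 0.168). Members of this list thus passed in both directions.

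Of 18 genes of the ATF4 stress response, 1 passed in H + N against L − N, PPP1R15A, which lets translation recover after stress and fell by 0.72 (SE 0.20, edgeR adjusted p = 0.0490). Of 15 p53-responsive genes, 2 fell and none rose. GADD45A, a growth arrest gene, fell by 1.89 (SE 0.31, edgeR adjusted p = 0.0156), from 265 to 528 CPM in L − N to 97.1 to 120 CPM in H + N, and PHLDA3, an inhibitor of AKT, by 1.21 (SE 0.21, edgeR adjusted p = 0.0166). The median of the ATF4 list was −0.06 and that of the p53 list −0.32.

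Of 12 FOXO-responsive genes, 4 fell in H + N against L − N and the log2 fold change of none was above 0, with a median of −0.52. FOXO1 itself fell by 0.49 (SE 0.10, edgeR adjusted p = 0.0232), CITED2, a transcriptional coregulator, by 0.95 (SE 0.20, edgeR adjusted p = 0.0247), PIK3IP1, an inhibitor of PI3K, by 1.74 (SE 0.42, edgeR adjusted p = 0.0336) and KLF6, a transcription factor, by 0.58 (SE 0.16, edgeR adjusted p = 0.0443). SESN3, a member and FOXO target, differed by 0.30 in the same comparison.

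**Figure D4:**
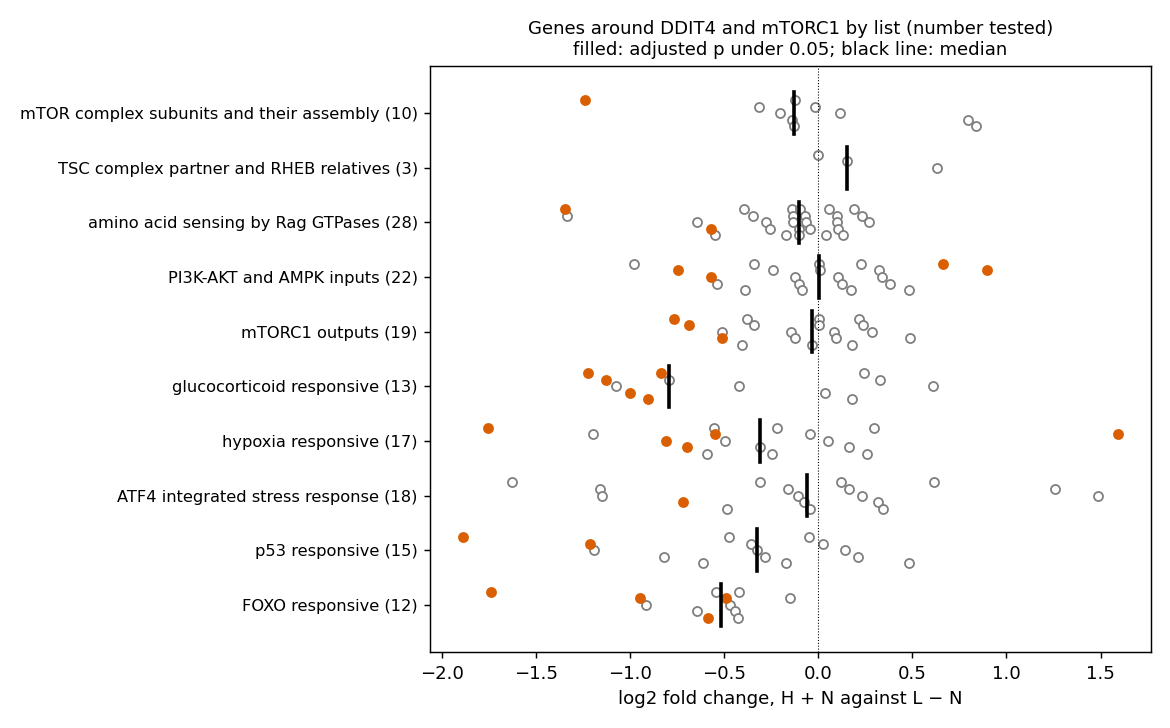
Log2 difference between H + N and L − N for the genes around DDIT4 and mTORC1, 1 point per gene, by list with the number tested, filled where the adjusted p was under 0.05 and with the median as a black line. The glucocorticoid-responsive (median −0.79) and FOXO-responsive (median −0.52) lists lay furthest below 0, and VEGFA at 1.59 was the highest gene shown.

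The 24 genes that the naming rule took from these lists for H + N against L − N kept their direction in all 12 fits that left out one library. None of them passed without L − N replicate 3 (edgeR adjusted p from 0.0719 to 0.168) or without H + N replicate 1 (0.0524 to 0.140). Over all genes, 4 and 1 were then differentially expressed, which also needs an absolute log2 fold change above 1, against 549 with all libraries. By adjusted p alone, 1223 passed with all libraries. Without L − N replicate 1, 20 of the 24 passed, while 5 genes each of the Rag GTPase and p53 lists did, against 2 each with all libraries. The differentially expressed genes rose over all genes too in that fit, to 948. BNIP3L passed in 0 of the 12 fits, MAF1, PPP1R15A and RRAGC in 2 each and GRB10 and KLF6 in 3 each. Of the 10 genes that it took for NCG over both fiber levels, all kept their direction, and between 4 (without L − N replicate 3) and 10 (without H + N replicate 2) passed, and 8 without L − N replicate 1. For NCG, CASTOR2 passed in 3 of the 12 fits.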

How the data were processed

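Endometrial RNA was measured in 12 libraries, 3 for each of the 4 diets, which were assigned to groups by their titles. The authors deposited 1 table with the raw read count and the FPKM of each gene, its coordinates on Sscrofa11.1, the gene length and the KEGG annotation. The submitters' processing notes name fastp 0.22.0, HISAT2 2.1.0 and HTSeq 0.9.1, and the counting strand is not given in the sources used here. The deposited FPKM differ from count, length and library total by at most 1.91e-05 percent and served only to compare levels between genes, and the other deposited columns, gene length among them, are as the authors gave them. All 20674 genes matched the RefSeq annotation, 20663 with the same start and end.

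Counts were analyzed in R 4.3.3 with edgeR 4.0.16 (filterByExpr, TMM, quasi-likelihood fit with one mean per group, 15351 genes, 8 residual degrees of freedom, biological coefficient of variation 0.269). A gene passed at a Benjamini-Hochberg adjusted p under 0.05 and was differentially expressed if the absolute log2 fold change was also above 1, the thresholds of the study. SE is the log2 fold change divided by the root of the F statistic. Log2 CPM used a prior count of 2. Replicates of one group differed with a chi-square of 23.3 to 99.8 per gene, so that the spread between samples and not counting error limits the precision. The fit was also run on simulated counts that held changes of known size. These were drawn for each gene independently, without libraries that stand apart from their group. The run therefore does not measure how reliable the present calls are.

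Alternatives were RLE size factors, no filter, DESeq2 1.42.0 (the study's tool), the replicate number as a block, each library left out in turn, the 2 groups alone, and FPKM for levels. The members and gene lists were chosen with earlier results of these data known. All members are named, and of each list at most 4 genes that passed for fiber, NCG, the interaction or H + N against L − N, by smallest adjusted p, of which 1 is not reported here. H + N against H − N and against L + N were added after the group levels were seen. Replicate numbers were checked for pairing: 3 of 18 same-numbered pairs of libraries had deviations from the group means that correlated above 0.1 (range −0.32 to 0.28), so the numbers do not pair the samples.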

Additional observations from a re-analysis of the deposited data

How the results depend on the processing

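Over 66 log2 fold changes of members and 1092 alternatives, 1023 kept direction and side of the threshold, 38 lost and 18 gained the call and 13 changed sign; the cause was not tested. The number of differentially expressed genes was 4 for fiber with edgeR, against 290 with DESeq2 and 1 with the replicate block. DESeq2 gave 184 for the interaction (0 in edgeR), 988 for H + N against L − N (549), 913 for H − N against L − N (446), 25 for H + N against H − N (0) and 2 for H + N against L + N (0), and the replicate block gave 254 for H − N against L − N. The numbers of members passing became 2 for fiber with DESeq2, 4 for L + N against L − N with DESeq2, 1 for H + N against L − N without the filter, with the replicate block and in the 2 groups alone, and 0 for H − N against L − N in the 2 groups alone. DDIT4 was at −0.45 for fiber with DESeq2 (adjusted p = 4.21e-05) and at −0.70 for H − N against L − N in the 2 groups alone (edgeR adjusted p = 0.0938). The replicate numbers do not pair the samples, and 3 of 12 libraries correlated best with their own number. With the replicate block, SESN1 in H + N was at −0.80 with an edgeR adjusted p of 0.0585, and no other call of a member was changed.

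With one library left out, the differentially expressed genes ranged from 0 to 331 for fiber, 157 to 340 for NCG, 0 to 346 for the interaction, 1 to 948 for H + N, 0 to 1120 for H − N and 143 to 911 for L + N, each against L − N. Members passing ranged from 0 to 2 for fiber, 1 to 3 for NCG, 0 to 3 for H + N, 0 to 3 for H − N and 1 to 3 for L + N. The fold change of DDIT4 ranged from −0.47 to −0.40 for fiber, from −1.06 to −0.92 for H + N and from −0.74 to −0.60 for H − N. None of the member results that changed sign had passed in the comparison concerned. For fiber, TSC2 ranged from −0.020 to 0.075 and RHEB from −0.010 to 0.082. For NCG, TSC1 ranged from −0.15 to 0.021 and SESN2 from −0.25 to 0.0020. For the interaction, TSC1 ranged from −0.11 to 0.25 and MTOR from −0.11 to 0.045. Against L − N, RPTOR ranged from −0.13 to 0.060 in H + N and from −0.099 to 0.0067 in L + N, RHEB from −0.17 to 0.014 in H − N and SESN3 from −0.15 to 0.081 in H − N.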
